A study of Mus musculus with 23 samples.

Results

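A set of 9 genes of B cells and of the lymphoid follicles that form Peyer patches was followed in the ileum of male mice: *Cd79a*, *Cd79b*, *Ms4a1*, *Cd22*, *Cr2*, *Fcer2a*, *Cxcr5*, *Cxcl13* and *Pax5*. They were chosen by name, and each probe that carries 1 of these names on the array was used, which gave 17 of the 56605 probes on the array. Of these, 15 stood in the deposited table of 37161 probes, with at least 1 probe for 9 of 9 genes, among 17574 named genes in that table. A gene is given by its probe with the highest mean in that table, and its other probes are given beside it.

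The 23 arrays, 1 per mouse, came from 4 groups, with WT mice and mice lacking the pregnane X receptor (PXR) given either its ligand pregnenolone 16α-carbonitrile (PCN) or the vehicle. WT animals were C57BL/6J males bought at 6 weeks of age, and Pxr-/- animals were males on that background, bred in house for 10 years, in which the gene is missing in the whole body from conception. Genotype and breeding origin therefore cannot be told apart. Mice were given 2 weeks to acclimatise. The WT PCN group (n = 5) and the Pxr-/- PCN group (n = 6) received daily intraperitoneal PCN (100 mg/kg in corn oil) during 4 days, whereas the WT CONT group (n = 6) and the Pxr-/- CONT group (n = 6) received the oil alone. Mice had free access to food and were killed at ZT6, when 6 h had passed since the last injection. The study describes mice at that time of day as semi-fasted. The labels allocate 6 mice to WT PCN, of which 5 arrays were analysed here, and they do not say whether Peyer patches were kept in or cut out of the ileum.

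B cells recognise antigen through a membrane immunoglobulin that signals through the paired chains CD79A and CD79B. In the gut, they gather in follicles of the Peyer patches, where stromal cells and follicular dendritic cells release the chemokine CXCL13 and B cells follow it through its receptor CXCR5. CR2, FCER2A, CD22 and the protein of *Ms4a1* (CD20) lie on the surface of mature B cells, and PAX5 is the transcription factor that keeps B cell identity. Follicles are scattered along the ileum, so that a piece of ileum can hold few or many of them.

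The probes are shown for *Ms4a1*, *Cd22* and *Pax5*, in which probes of the same gene gave different answers. Those of *Fcer2a* also differed and are not shown. Further probes shown are that of *Cd79a*, whose highest arrays differed from those of the other genes, and those of *Cr2* and *Cxcl13*. The last are a B cell and a stromal gene with large changes. The first 30 bases of each 60-base probe are given in the 5′ to 3′ direction as on the array, in lower case throughout since no base is singled out. Positions were read from the probe annotation in the scanner files (build mm9) and cover the whole probe; exon and intron annotation was not analysed here.
Ms4a1 probe A_55_P2802151, chr19:11325409-11325468, minus strand: cagaaatgtaatgggttcccagatctcaaa
Ms4a1 probe A_66_P120649, chr19:11324334-11324393, minus strand: ccgctatgcctggagaggatggggaggtgg
Cd22 probe A_55_P2016004, chr7:31651249-31651308, minus strand: gaaaaatgaaaaaccaaccaaccaaccaaa
Cd22 probe A_51_P448140, chr7:31651590-31651649, minus strand: ggaggatgagagcatccattactcagagct
Pax5 probe A_66_P128859, chr4:44692322-44692381, minus strand: tactccatcagtggcatcctgggcatcacg
Pax5 probe A_52_P429826, chr4:44537936-44537995, minus strand: atgtaattacagcagtgccaatttgccaaa
Cd79a probe A_66_P120987, chr7:25684357-25684614, plus strand: tagaaaacaacatattaaaacgctcctgtg
Cr2 probe A_55_P1971729, chr1:196965532-196965591, minus strand: tggcctacagattgttcttgtgatatttca
Cxcl13 probe A_51_P378789, chr5:96389861-96389920, plus strand: gatttattgtcttgcattaaaaccagtaac

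Values below are log2 values of the deposited table, in which all arrays hold the same set of values, so that a difference of 1 is a doubling. Levels are compared only between arrays for the same probe. Median spot brightness per array ranged from 74 to 106.5 and local background from 19 to 28.5 (linear units), and 62.7% to 68.8% of spots were well above background. All 7 genes of an ileal epithelium list, among them *Fabp6* and *Slc10a2*, the bile acid carriers of the ileum, were above background on 23 arrays. *Cyp3a11*, the classical PXR target, lay at 10.82 to 12.56 in WT PCN against 7.12 to 9.30 in WT CONT, and at 6.01 to 6.89 in the Pxr-/- groups. The *Nr1i2* probe, which reads the PXR gene, lay at 11.34 to 12.37 in Pxr-/- CONT and at 11.91 to 12.28 in WT CONT, but it is not known to lie in the deleted segment and so checks nothing. The brightest probes of 8 genes were well above background on 23 arrays, and that of *Fcer2a* on 17.

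PCN treatment of WT mice went with higher mean levels of all 9 genes, and that difference rested mostly on 2 mice. Across the 9 genes the median change in WT was 1.14 on the log2 scale, against -0.01 over all probes. WT PCN replicates 2 and 3 were the 2 highest of the 23 arrays for 8 of 9 genes, which was the case for 2.2% of all probes, and Pxr-/- PCN replicate 1 came next for 6 of 9 genes, an order found for 0.511% of all probes. The arrays counted here were picked after the values of these genes were seen, so the shares of all probes are a description and not a test. The median over the genes of an array's distance from each gene's median over arrays was 2.02 and 2.10 for these WT PCN arrays and 0.94 for Pxr-/- PCN replicate 1, whereas the other 20 arrays lay between -0.28 and 0.15. In whole tissue, more B cells or follicle stroma and more of this RNA per cell cannot be told apart.

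**Figure D1:**
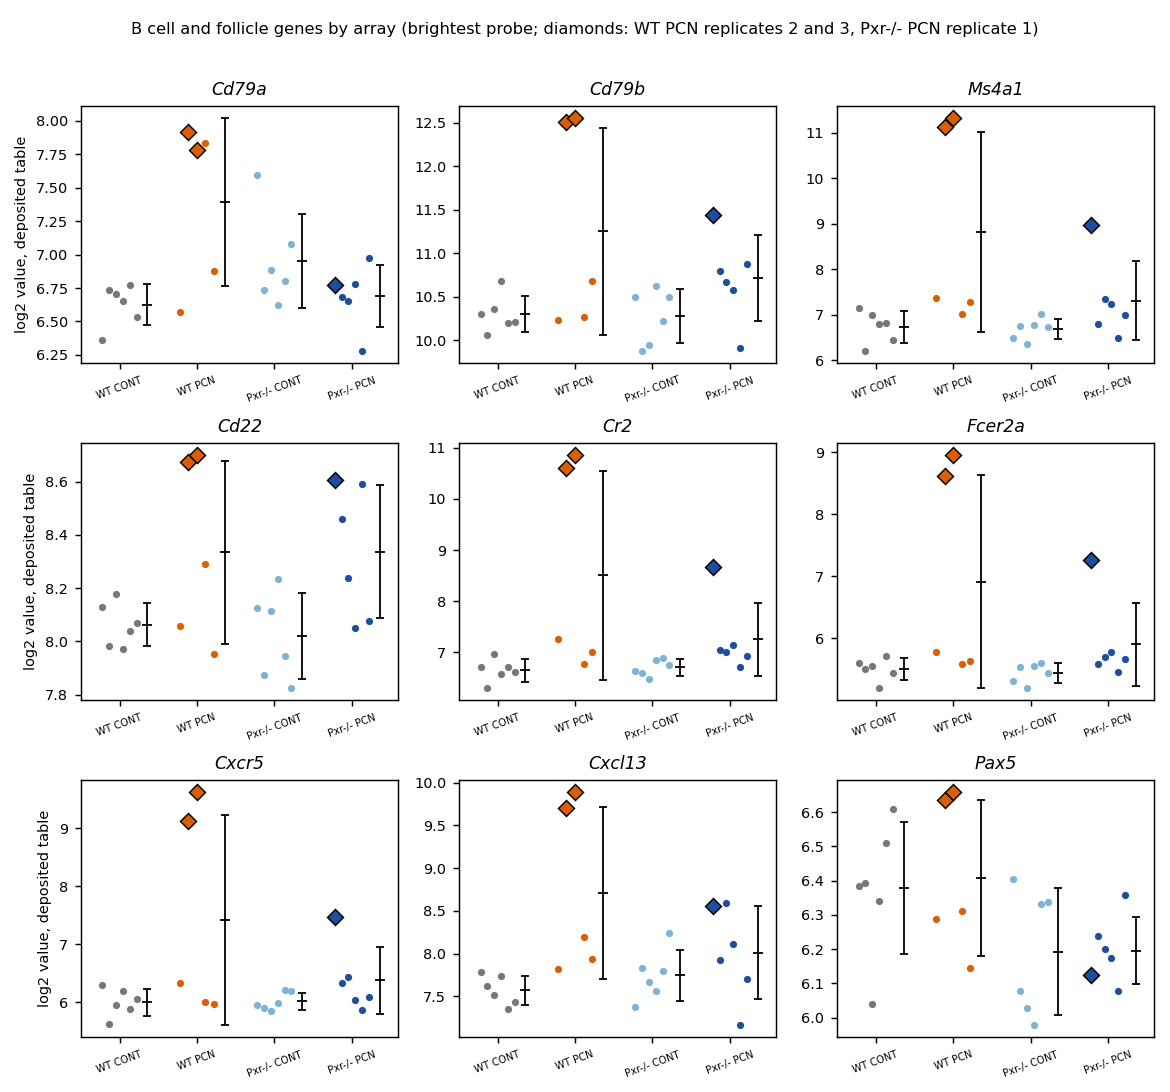
Log2 value of each gene's brightest probe (vertical axes, 1 per gene) on each of the 23 arrays by group (horizontal axis), with the group mean ± SD beside the points; diamonds mark WT PCN replicates 2 and 3 and Pxr-/- PCN replicate 1. For *Ms4a1*, the 2 highest WT PCN arrays sit at 11.12 and 11.34 while the other WT PCN arrays sit between 7.01 and 7.36.

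The partners of the B cell receptor behaved differently from each other. *Cd79b* lay at 10.23, 12.51, 12.56, 10.27 and 10.68 on the 5 WT PCN arrays, in the order of their replicate numbers, and at 10.06 to 10.68 (median 10.25) in WT CONT. Replicates 2 and 3 stood above all other arrays and the remaining WT PCN arrays lay within or at the edge of the control range. In Pxr-/- mice, *Cd79b* lay at 9.87 to 10.62 in CONT and at 9.91 to 11.43 (median 10.73) in PCN, with the highest value in replicate 1. The PCN difference was 0.95 ± 0.36 (SE) in WT (adjusted p = 0.254, limma) and 0.44 ± 0.34 in Pxr-/- mice (adjusted p = 0.507).

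*Cd79a* did not single out the same 2 arrays. Its WT PCN values were 6.57, 7.92, 7.78, 7.84 and 6.87, so that replicate 4, which lay at control level for *Ms4a1*, *Cd79b* and *Cxcr5*, was as high as replicates 2 and 3. WT CONT lay at 6.36 to 6.77 (median 6.68), below 4 of the 5 WT PCN arrays. Pxr-/- CONT lay at 6.62 to 7.59 (median 6.84), with the top value in replicate 1, and Pxr-/- PCN at 6.28 to 6.97 (median 6.73). The difference was 0.77 ± 0.21 in WT (adjusted p = 0.0787) and -0.26 ± 0.20 in Pxr-/- mice (adjusted p = 0.501), and the interaction was -1.03 ± 0.29 (adjusted p = 0.486). The *Cd79a* probe spans 258 bases of the genome for its 60 bases and is the sole probe of this gene here. Within wash batch 1, which held 2 WT PCN arrays, replicates 3 and 4, the WT difference of *Cd79a* was 1.27 (adjusted p = 0.00375), and within wash batch 2 it was 0.40 (adjusted p = 0.719).

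*Ms4a1*, *Cr2* and *Fcer2a* encode surface molecules of mature B cells, and each was high on WT PCN replicates 2 and 3. *Ms4a1*, which encodes the B cell membrane protein CD20, lay at 7.36, 11.12, 11.34, 7.01 and 7.28 in WT PCN against 6.20 to 7.15 (median 6.80) in WT CONT. *Cr2*, the complement receptor CD21 that lowers the threshold for antigen, lay at 7.26, 10.60, 10.86, 6.78 and 7.02 against 6.30 to 6.98 (median 6.67). *Fcer2a*, the low-affinity IgE receptor CD23 of follicular B cells, lay at 5.78, 8.62, 8.96, 5.58 and 5.63 against 5.19 to 5.72 (median 5.53). In each of these genes replicates 2 and 3 stood far above the remaining arrays, which overlapped the controls or lay just above them. The step from WT PCN replicate 2 down to the next array was 4.46-fold for *Ms4a1*, 3.80-fold for *Cr2* and 2.57-fold for *Fcer2a*.

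The next highest array in these genes was Pxr-/- PCN replicate 1. It lay at 8.97 for *Ms4a1*, while the other Pxr-/- PCN arrays lay between 6.48 and 7.34 and Pxr-/- CONT between 6.36 and 7.003. It lay at 8.68 for *Cr2*, with the other Pxr-/- PCN arrays between 6.71 and 7.14. It lay at 7.25 for *Fcer2a*, with the others between 5.45 and 5.78. One mouse of the Pxr-/- PCN group thus stood apart in the genes in which 2 mice of the WT PCN group did.

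None of these 3 genes passed the threshold on its brightest probe. The PCN difference in WT was 2.10 ± 0.63 for *Ms4a1* (adjusted p = 0.122), 1.86 ± 0.57 for *Cr2* (adjusted p = 0.133) and 1.42 ± 0.49 for *Fcer2a* (adjusted p = 0.197). In Pxr-/- mice it was 0.62 ± 0.60, 0.55 ± 0.54 and 0.47 ± 0.47 (adjusted p = 0.609, 0.620 and 0.622). A mean described these groups poorly, as *Ms4a1* was 8.82 ± 2.20 (SD, n = 5) in WT PCN and 6.73 ± 0.35 (n = 6) in WT CONT, and the SD left after group and batch means was larger than that of 99.7% of all probes.

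A second, dimmer *Ms4a1* probe, A_66_P120649, was the only member probe called in WT. It lay at 5.83, 6.50, 6.84, 5.95 and 6.07 in WT PCN, all above the WT CONT range of 5.19 to 5.69, and differed by 0.72 ± 0.16 (adjusted p = 0.0235). It was above background on 20 arrays, 3 of 6 in WT CONT and all arrays of the other groups. Its highest arrays were again WT PCN replicates 3 and 2 and Pxr-/- PCN replicate 1, and the difference was 0.42 ± 0.15 (adjusted p = 0.239) without WT PCN replicates 2 and 3. The call was also lost without any 1 of WT PCN replicate 2, WT PCN replicate 3, WT CONT replicate 2 and WT CONT replicate 6 (19 of 23 such fits kept it; *Ms4a1* changes of 0.55 to 0.82, adjusted p up to 0.0856).

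The second probes of *Cr2* and *Fcer2a* were dimmer as well. The *Cr2* probe A_55_P2743452 lay at 6.26, 8.63, 8.86, 6.09 and 5.55 in WT PCN, with 7.16 on Pxr-/- PCN replicate 1, and was above background on 21 arrays. WT PCN replicates 3 and 2 and Pxr-/- PCN replicate 1 were its highest arrays, in the order seen on the brightest *Cr2* probe. The change of this second probe in WT was 1.23 ± 0.44 (adjusted p = 0.222). The *Fcer2a* probe A_55_P2732758, above background on 12 arrays, lay at 5.19, 5.91, 5.77, 5.28 and 5.57 in WT PCN and at 5.13 to 5.58 in WT CONT (0.22 ± 0.11, adjusted p = 0.469).

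*Cd22*, an inhibitory receptor of B cells, gave different answers with its probes. The brightest, A_55_P2016004, lay at 8.06, 8.67, 8.70, 8.29 and 7.95 in WT PCN, at 7.97 to 8.18 in WT CONT and at 8.05 to 8.61 in Pxr-/- PCN, and its change in WT was 0.27 ± 0.13 (adjusted p = 0.427). Probe A_51_P448140, 1 of the pair shown above on chromosome 7, lay at 6.10, 8.61, 8.57, 5.96 and 6.11 in WT PCN and at 6.04 to 6.28 in WT CONT, with 6.99 on Pxr-/- PCN replicate 1. On that probe, WT PCN replicates 2 and 3 stood 2.98-fold above the next array, whereas on the brightest probe the step was 1.05-fold. The brightest probe had 48.3% adenine, the highest share among the 17 probes, in which it otherwise ran from 16.7% to 43.3%; the part of this in its smaller range was not tested. Probe A_55_P2163795 of the same gene was above background on 10 arrays and stayed between 5.13 and 5.67.

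*Pax5* split in the same way. Probe A_66_P128859 lay at 6.29, 6.64, 6.66, 6.31 and 6.15 in WT PCN and at 6.04 to 6.61 in WT CONT, a change of 0.03 ± 0.11 (adjusted p = 0.961, 95% interval -0.20 to 0.26). Probe A_52_P429826 lay at 6.13, 6.94, 7.28, 4.66 and 5.03 in WT PCN and at 4.84 to 5.38 in WT CONT. It was well above background on 3 WT PCN and 2 Pxr-/- PCN arrays and on 0 arrays of either CONT group. The WT PCN mean was 1.83-fold above the bound set by background for WT CONT, and the Pxr-/- PCN mean 1.08-fold above that for Pxr-/- CONT. Both means include arrays not above background at their measured signal, so these folds are not strict lower bounds. The measured change in WT was 0.99 ± 0.32 (adjusted p = 0.155, limma). In this case too, replicates 2 and 3 were the highest, and replicate 1 of WT PCN, not an array of Pxr-/- PCN, came next.

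**Figure D2:**
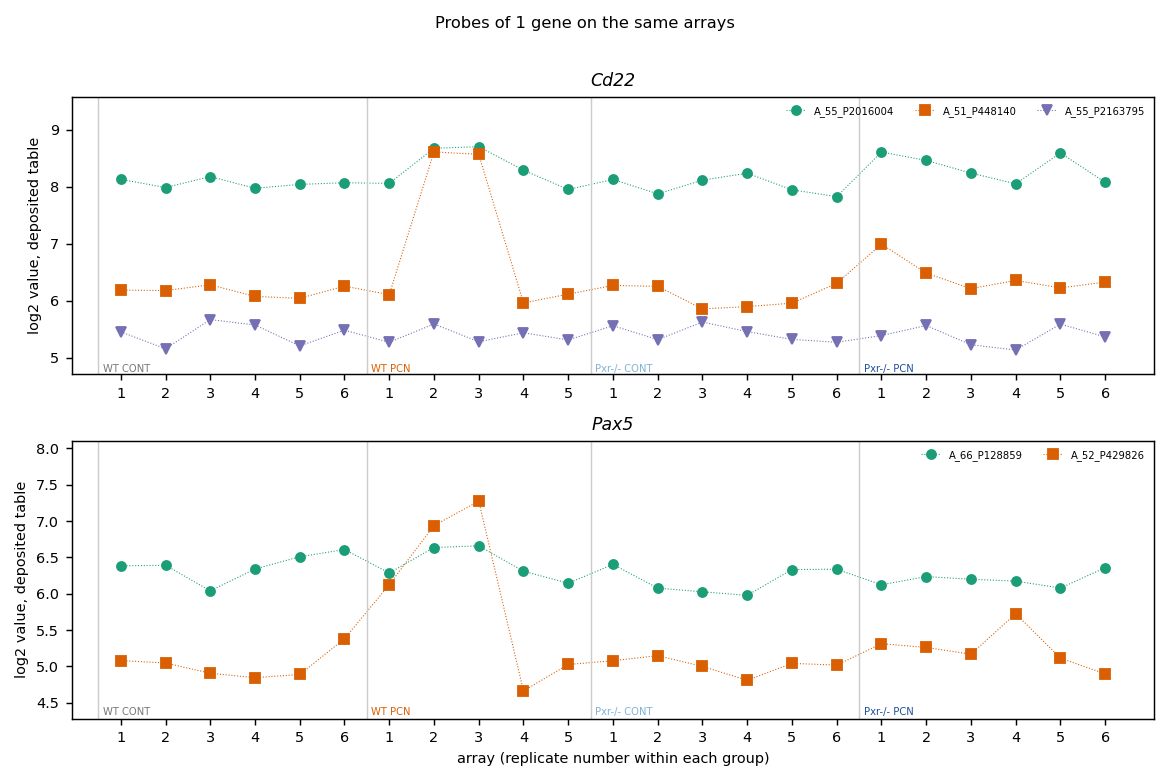
Log2 value (vertical axes) of 3 *Cd22* probes and 2 *Pax5* probes on the 23 arrays (horizontal axis, replicate number within each group; the dotted lines join points of 1 probe). On WT PCN replicates 2 and 3, *Cd22* probe A_51_P448140 rises to 8.61 and 8.57 and *Pax5* probe A_52_P429826 to 6.94 and 7.28, while *Pax5* probe A_66_P128859 stays at 6.64 and 6.66.

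The chemokine pair of the follicle was high on the same arrays. *Cxcr5*, the receptor on B cells, lay at 6.32, 9.13, 9.63, 6.01 and 5.97 in WT PCN, at 5.63 to 6.29 (median 6.00) in WT CONT, at 5.86 to 6.22 in Pxr-/- CONT and at 5.87 to 7.47 in Pxr-/- PCN, highest in replicate 1. Apart from WT PCN replicates 2 and 3 and Pxr-/- PCN replicate 1, the arrays of the 4 groups overlapped. Its change was 1.42 ± 0.50 in WT (adjusted p = 0.214) and 0.36 ± 0.48 in Pxr-/- mice (adjusted p = 0.722).

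*Cxcl13*, the ligand made by follicle stroma, was the 1 gene whose WT groups did not overlap. Its WT PCN values, 7.82, 9.70, 9.89, 8.20 and 7.94, all lay above the WT CONT range of 7.35 to 7.78 (median 7.56); ranges were apart in WT for 1 of 9 genes and for 2.7% of all probes. In Pxr-/- mice, CONT lay at 7.37 to 8.25 (median 7.73) and PCN at 7.16 to 8.60 (median 8.02), with replicates 3 and 1 at 8.60 and 8.56. The change was 1.14 ± 0.32 in WT (adjusted p = 0.0909) and 0.27 ± 0.31 in Pxr-/- mice (adjusted p = 0.675). Averaged over the genotypes it was 0.70 ± 0.22 (adjusted p = 0.0492), and *Cxcl13* was then the 1 gene called of 9, at a background of 0.939% of probes. This call was made in 6 of the 23 fits that left out 1 array, with changes of 0.54 to 0.81 over all 23 fits.

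Called means an adjusted p of at most 0.05 over the 37161 probes and a fold change above 1.5. For PCN in WT, 0 of 9 genes were called by limma on the brightest probe, at a background of 0.692% of probes. With robust regression, which gives less weight to outlying arrays, 3 of 9 were called (*Cd79a*, *Ms4a1* and *Cr2*), at a background of 0.996% of probes in that fit. It called 1 of 9 for the interaction (0.293%) and 1 of 9 between the genotypes under PCN (0.684%). Both of these calls were of *Cd79a*, whose highest arrays differed from those of the other genes. By ordinary regression 7 of 9 had an unadjusted p under 0.05, as had 4374 of the 37161 probes, and all 9 genes were higher in WT PCN. For PCN in Pxr-/- mice, 0 of 9 were called at a background of 0.947%, and 8 of 9 were higher, 1 with an unadjusted p under 0.05 (7281 of the 37161 probes). By ordinary regression the interaction, that is the PCN difference in Pxr-/- mice minus that in WT, called 0 of 9 (0.078% of probes). Its unadjusted p was under 0.05 for 1 of 9 genes and for 1679 of the 37161 probes. The intervals were wide. The interaction of *Ms4a1* was -1.48 ± 0.88, with a 95% interval of -3.30 to 0.33.

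No difference between the genotypes passed the test in vehicle-treated mice. Under CONT, 0 of 9 genes were called (0.148% of probes), 4 of 9 were higher in Pxr-/- mice, and the adjusted p was at least 0.653. An unadjusted p under 0.05 was found for 0 of 9 genes and for 3354 of 37161 probes. The largest differences were 0.33 ± 0.20 for *Cd79a* and -0.19 ± 0.10 for *Pax5*. The interval for *Cr2*, -1.08 to 1.18, leaves room for a doubling either way. Under PCN, 8 of 9 genes were lower in Pxr-/- than in WT mice, with a median of -0.71. Of the 9, 0 were called (0.366% of probes), and 6 had an unadjusted p under 0.05 (2618 of 37161 probes). WT PCN had the highest group mean for 8 of 9 genes and Pxr-/- PCN the second highest for 6, but the ranges of neighbouring groups in this order overlapped in 27 of 27 pairs.

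Leaving out WT PCN replicates 2 and 3, a choice made after their values were seen, brought the median change in WT from 1.14 to 0.15. *Ms4a1* then changed by 0.48 ± 0.35 (adjusted p = 0.650), *Cxcl13* by 0.41 ± 0.24 (adjusted p = 0.545), *Cd79a* by 0.47 ± 0.22 (adjusted p = 0.429) and *Cr2* by 0.36 ± 0.28 (adjusted p = 0.679). *Fcer2a*, *Cd79b* and *Cxcr5* were at 0.15, 0.09 and 0.09, *Cd22* was at 0.04 and *Pax5* at -0.13. Over all probes, the count called for PCN in WT was 257 with and 256 without these 2 arrays. Such a count cannot be set against a median change, and near-equal totals do not show that the same probes stayed called. Of the genes followed here, 0 were called with all arrays.

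**Figure D3:**
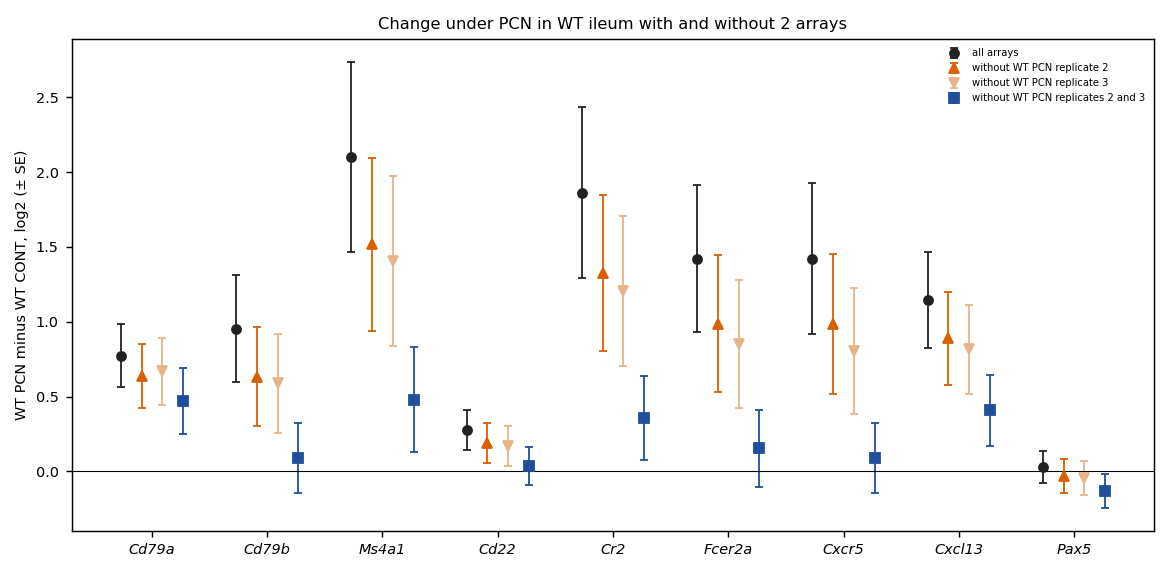
PCN difference in WT (vertical axis, WT PCN minus WT CONT, log2, with ± SE from limma) for each of the 9 genes (horizontal axis) with all arrays, without WT PCN replicate 2, without replicate 3 and without both. For *Ms4a1* the difference goes from 2.10 with all arrays to 0.48 without both, and for *Cd79a* from 0.77 to 0.47.

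No single array had this effect. Leaving out 1 array at a time, the WT difference of *Ms4a1* ran from 1.41, without replicate 3, to 2.64, without replicate 4, and that of *Cr2* from 1.21 to 2.37, also without replicates 3 and 4. Both were called only without WT PCN replicate 4 (adjusted p = 0.0382 for *Ms4a1* and 0.0366 for *Cr2*). *Cd79a* was called in 3 of 23 such fits, without WT PCN replicate 1, WT PCN replicate 5 or Pxr-/- CONT replicate 1, and *Cxcl13* in 1, without WT PCN replicate 1. In Pxr-/- mice, leaving out PCN replicate 1 brought *Ms4a1* from 0.62 to 0.26, *Cr2* from 0.55 to 0.24, *Fcer2a* from 0.47 to 0.17 and *Cxcr5* from 0.36 to 0.12.

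The 3 arrays did not share a slide. WT PCN replicate 3 was on slide 2 in wash batch 1, and WT PCN replicate 2 on slide 5 and Pxr-/- PCN replicate 1 on slide 8, both in wash batch 2. The median WT difference of the 9 genes was 1.47 within wash batch 1 and 0.92 within wash batch 2. WT PCN replicates 2 and 3 were not the same array deposited again: 349 probes differed by more than 1 on the log2 scale between them, within the range of 275 to 747 for pairs of this group.

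Other B lineage genes showed the pattern. Of 27 such genes, 24 stood in the table, WT PCN replicates 2 and 3 were the 2 highest arrays for 17 of them, and all 3 arrays came first for 13. For PCN in WT, 23 of 24 were higher (median 0.67; median over all probes -0.01), and 0 were called. *Blnk*, an adaptor of receptor signalling, differed by 0.49 (adjusted p = 0.0950) and the kinase gene *Btk* by 0.53 (adjusted p = 0.198). Averaged over the genotypes, 22 of 24 were higher (median 0.50) and 3 were called, at a background of 0.939% of probes. Of the called genes, *Fcmr*, the receptor for IgM, rose by 1.57 (adjusted p = 0.0277). The B cell coactivator *Pou2af1* rose by 0.69 (adjusted p = 0.00798) and the transcription factor *Ebf1* by 0.67 (adjusted p = 0.0140). Without WT PCN replicates 2 and 3, the median for PCN in WT was 0.16, with 22 of 24 higher; averaged over the genotypes, *Fcmr* still passed (0.76, adjusted p = 0.0473), while *Pou2af1* at 0.54 and *Ebf1* at 0.36 fell short of the fold threshold.

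Of 12 genes of B cell receptor signalling, 1 was called, *Fcgr2b*, an inhibitory receptor for IgG that macrophages and other myeloid cells also carry. It rose by 0.85 in WT (adjusted p = 0.000443) and by 0.71 in Pxr-/- mice (adjusted p = 0.00262), and it kept both calls in all 23 fits that left out 1 array. Without WT PCN replicates 2 and 3 it still differed by 0.76 in WT (adjusted p = 0.0100). *Syk*, *Lyn* and *Plcg2* differed by 0.21, 0.07 and 0.20 in WT, and the list median was 0.26.

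In a list of follicle and lymphoid stroma, with 15 of 16 genes in the table, 2 were called for PCN in WT. *Ccl19*, a chemokine of the T cell zone, rose by 1.31 (adjusted p = 0.0245) and *Clu*, a marker of follicular dendritic cells that other cells also make, by 0.85 (adjusted p = 0.0377). Without WT PCN replicates 2 and 3 they differed by 0.63 (adjusted p = 0.214) and 0.33 (adjusted p = 0.243); leaving out WT PCN replicate 2 alone gave adjusted p = 0.0850 and 0.125. *Lta* and *Ltb*, the lymphotoxin genes of follicle formation, differed by 0.78 and 0.77 and *Ltbr*, their receptor, by -0.08. Averaged over the genotypes, *Ccl19* and *Ccl21a* rose, by 0.82 and 0.80 (adjusted p = 0.0145 and 0.0331), and neither was called without WT PCN replicates 2 and 3 (0.48 and 0.61, adjusted p = 0.0365 and 0.125).

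Lists of other cells did not single out these arrays to the same extent. WT PCN replicates 2 and 3 were the 2 highest for 2 of 7 germinal centre genes (median change in WT 0.29), 0 of 9 plasma cell genes (-0.07), 1 of 11 T cell genes (0.04), 2 of 4 pan-leukocyte genes (0.33) and 0 of 7 ileal epithelium genes (-0.08). *Mzb1* and *Jchain*, made by antibody-secreting cells, differed by 0.03 and -0.12 in WT, and the T cell receptor genes *Cd3e*, *Cd3d* and *Cd3g* by -0.01, 0.02 and -0.02. In the list of M cells and follicle epithelium, *Tnfaip2* was called for PCN in WT (0.60, adjusted p = 0.0423), in 9 of 23 fits that left out 1 array, and *Gp2*, the M cell receptor, differed by 0.49 (adjusted p = 0.610).

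**Figure D4:**
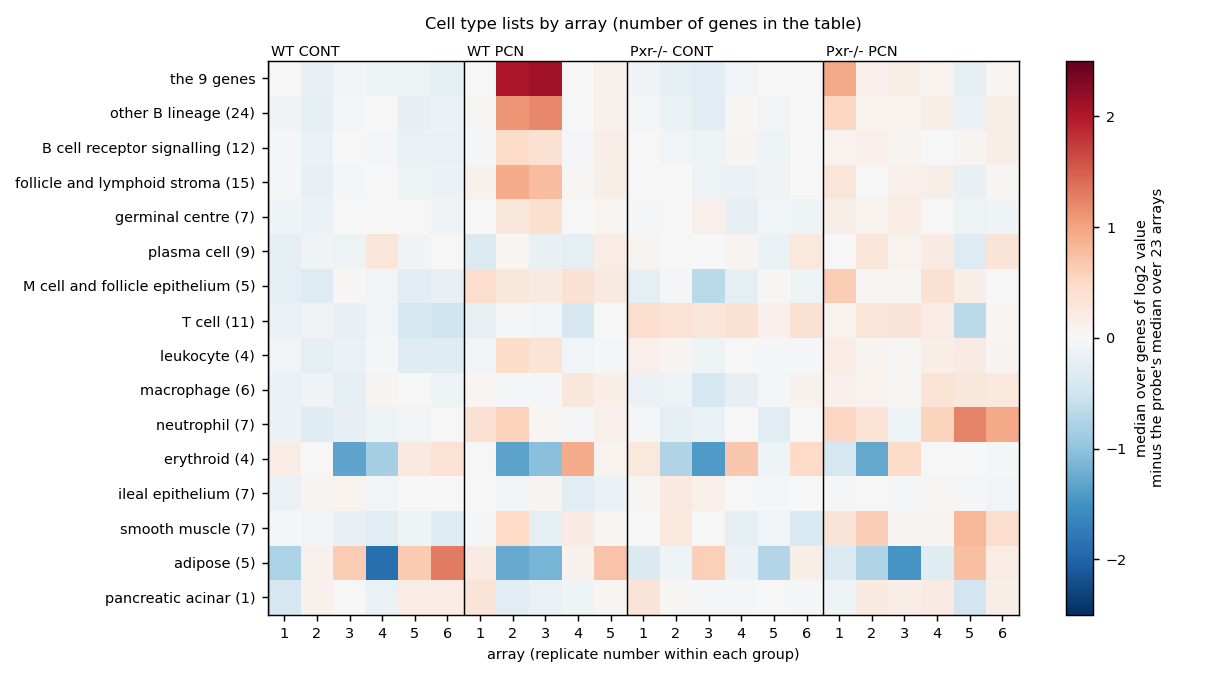
Median over the genes of a list of the log2 value minus that probe's median over the 23 arrays (colour scale), for each cell type list (rows) on each array (columns, replicate number within each group). WT PCN replicates 2 and 3 read 2.02 and 2.10 for the 9 genes, 1.11 and 1.21 for other B lineage genes, 0.92 and 0.78 for follicle stroma, 0.04 and -0.19 for plasma cells and -0.03 and -0.07 for T cells.

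The summed level of a list, dominated by its brightest genes, moved less. For the 24 other B lineage genes, the log2 of the summed linear values lay at 16.08 to 16.40 in WT CONT, 16.12 to 16.49 in WT PCN, 16.39 to 16.59 in Pxr-/- CONT and 15.85 to 16.42 in Pxr-/- PCN. For the 11 T cell genes it lay at 12.93 to 13.18, 12.91 to 13.22, 13.30 to 13.64 and 12.69 to 13.55 in the same order. The part of other cell types in the differences of the 9 genes was not tested.

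Across arrays, the 9 genes varied together to unequal degrees. After removal of group and batch means, the correlation of a gene with the mean of the other 8 over the 23 arrays was 0.967 for *Cxcr5*, 0.954 for *Cr2*, 0.947 for *Fcer2a*, 0.943 for *Ms4a1*, 0.916 for *Cd79b* and 0.843 for *Cxcl13*, against 0.606 for *Cd22*, 0.535 for *Cd79a* and 0.513 for *Pax5*. The 10 genes outside the list with the highest correlation with the mean of the 9 included *Cd37*, *Chst3*, *Ccr6*, *Fcmr*, *Tnfrsf13c*, *Bfsp2*, *H2-Eb2*, *H2-Ob* and *Fcrl1*, with r from 0.951 to 0.977 over 23 arrays. For *Cd37*, a membrane protein of mature B cells, r was 0.977, Spearman's rho 0.825, and r 0.948 without the 2 WT PCN arrays. These values describe arrays that share the same 3 high points, and no test was made of them.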

How the data were processed

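RNA of the ileum of 23 mice was hybridised to single-colour Agilent arrays, with Cy3-labelled cRNA made from 150 ng of total RNA. The scanner files deposited by the authors hold the intensity of each spot (Agilent Feature Extraction 10.10.1.1). The values used here are the log2 values of the table the authors deposited. The study's methods, written for liver arrays of this experiment, give filtering of the median signal, log2 transformation, removal of wash bath effects and the CrossNorm method; the filter rule is not given in the sources used here. Each column of that table matched the scanner values of its own array best (23 of 23 arrays; slope 0.975 to 1.03, across probes), so its scale is log2 of the signal without centring of probes.

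Members and lists were chosen with earlier results of these data known. The 9 genes were named whatever they showed; of the other lists, up to 5 called genes or else the first 3 were named, and the 10 genes most like the 9 by Pearson correlation of residuals; 1 gene that these rules name is not reported here. Groups and wash batch were fitted to all 23 arrays with limma 3.58.1 (R 4.3.3, data.table version 1.17.8), with 2-sided moderated tests and Benjamini-Hochberg adjustment over 37161 probes. As each array is 1 mouse, p-values measure the spread between mice, and the number of arrays limits the precision. The steps were tested on simulated data. Probes on 0 arrays above background in a group were given a bound, the array's lowest signal well above background or the probe's own. Alternatives comprised the scanner values with other scalings, other filters, blocks and weights, and leaving arrays out.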

Additional observations from a re-analysis of the deposited data

Results flagged for a closer look

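In the Pxr-/- PCN group, replicate 1 lay apart from the other arrays of its group in 4 genes, by the gap to the nearest array as a share of the group's whole range (Dixon's criterion at 95%, here 6 arrays). The share was 0.654 for *Ms4a1* (8.97 against 7.34 on the nearest array), 0.781 for *Cr2* (8.68 against 7.14), 0.818 for *Fcer2a* (7.25 against 5.78) and 0.644 for *Cxcr5* (7.47 against 6.44). By chance about 5% of groups pass this criterion, and 36 were examined, 9 genes in 4 groups. WT PCN replicates 2 and 3 do not pass it since each is the other's nearest array. The 4 flags all fell on the same array, in genes that varied together across arrays, so they are not separate findings.

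Among the probes that the deposited table does not hold, 2 gave a signal above that of all CONT arrays. Their values are log2 scanner median signals that were not normalized between arrays. The *Cr2* probe A_51_P208525 (chr1:196967371-196967430, build mm9, minus strand) lay at 5.39, 7.52, 8.01, 5.17 and 5.13 in WT PCN and at 6.24 on Pxr-/- PCN replicate 1. It was well above background on 4 arrays, 2 in WT PCN and 2 in Pxr-/- PCN, and on 0 CONT arrays. Its highest value was 2.73 above the highest CONT signal, 5.29, which is itself background and not a measured level. Against the highest CONT bound, 5.34, taking for each array the higher of its own signal and the lowest signal of a probe well above background, the top array was at least 6.37-fold brighter. The *Cd22* probe A_52_P466268 was well above background on 2 arrays, both in WT PCN, and on 0 CONT arrays. Its highest value, 5.78 on WT PCN replicate 3, was 0.515 above the highest CONT signal, 5.27, again a background signal, and at least 1.36-fold above the same CONT bound.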

How the results depend on the processing

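The median change of the 9 genes for PCN in WT, 1.14 with all arrays, was 0.38 with robust regression and, among alternatives chosen after seeing the data, 0.15 without WT PCN replicates 2 and 3, 0.18 without these and Pxr-/- PCN replicate 1, and 0.43 as a difference of group medians. In the same 4 settings the median interaction, -0.96 with all arrays, was -0.148, 0.190, 0.00524 and -0.0879, and the median difference between genotypes under PCN, -0.71, was 0.24 without WT PCN replicates 2 and 3. The count of genes called for PCN in WT, 0 of 9, was 3 with robust regression, 1 within wash batch 1, 1 on the second brightest probe (a setting added after seeing the data) and 0 to 2 when single arrays were left out. Over all probes robust regression called 0.996% for PCN in WT, 0.293% for the interaction and 0.684% between genotypes under PCN, against 0.692%, 0.078% and 0.366% with ordinary regression. For the interaction robust regression called 1 gene, and between genotypes under PCN robust regression called 1, wash batch 1 alone 1, and fits without single arrays 0 to 1. The gene called was *Cd79a* each time. The share of all probes called is not given here for wash batch 1, the second brightest probe or single arrays left out, so those counts have no background beside them.

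Averaged over the genotypes, 1 gene was called. That count was 0 with quantile-normalized, median-centred or normexp-corrected scanner values, within wash batch 2, on the second brightest probe, and without WT PCN replicates 2 and 3 or these and Pxr-/- PCN replicate 1. It was 2 with the processed signal scaled to the 75th percentile, with the probes above background on all arrays, without a fold threshold and with the mean over a gene's probes. It was 3 without the wash batch term, with slide as a random block and with array weights, and 4 with slide as a fixed block. Single arrays left out gave 0 to 6 calls, 6 without WT PCN replicate 4. The share of all probes called was 0.939% with all arrays and 0.953% without WT PCN replicates 2 and 3. It was 0.912% without these and Pxr-/- PCN replicate 1. For the other settings that share is not given here, so their counts cannot be set against a background.

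Replicate numbers did not pair the mice: deviations of arrays with the same number correlated at -0.21 to 0.43 (33 pairs, median -0.03), and 8 of 23 arrays were most like an array of their own number. With the replicate block, 0 genes were called averaged over the genotypes (*Cxcl13* 0.70, adjusted p = 0.0595). Of the single-gene values under these settings, 2139 kept their side of the threshold, 27 lost a call and 42 gained one. Another 12, without a test, moved by more than the spread between replicates. None changed sign after a call, but uncalled values did not always keep their direction. The sign turned in 8 of 42 settings for *Pax5* under PCN in WT and in 14 of 42 for *Cd22* between genotypes under PCN. Signal near background limits *Fcer2a* and the second *Pax5* probe most.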

Other observations

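Lists of other cells of the gut wall also held genes called for PCN. In WT, 2 of 7 neutrophil genes were called and 6 were higher, at a background of 0.692% of probes. In Pxr-/- mice, 3 of 7 were called and 5 were higher, at a background of 0.947%. The summed level of that list overlapped, at 15.22 to 15.62 in WT CONT and 15.33 to 15.69 in WT PCN. In Pxr-/- mice it lay at 15.16 to 15.64 in CONT and 15.39 to 15.59 in PCN. *S100a8* and *S100a9*, the calprotectin subunits of neutrophils, rose by 1.63 and 2.16 in WT (adjusted p = 0.0398 and 0.0162) and by 2.56 and 2.90 in Pxr-/- mice (adjusted p = 0.000910 and 0.00108). In WT, leaving out WT PCN replicate 2 gave adjusted p = 0.144 for *S100a8* and 0.0612 for *S100a9*, and over the 23 fits that each left out 1 array the WT calls held in 11 and 22. *Retnlg*, also of neutrophils, rose in Pxr-/- mice by 1.35 (adjusted p = 0.0184), as did the smooth muscle genes *Actg2* and *Cnn1*, by 0.67 and 0.66 (adjusted p = 0.0238 and 0.0154), and *Cd68* of macrophages by 0.60 (adjusted p = 0.00695). Over the same 23 fits the Pxr-/- calls held in 23 for *Retnlg*, 20 for *Actg2*, 22 for *Cnn1* and 16 for *Cd68*. *Actg2* lost its call without Pxr-/- CONT replicate 6, Pxr-/- PCN replicate 2 or Pxr-/- PCN replicate 5, with the highest adjusted p = 0.0711 without the last. *Cnn1* lost its call without Pxr-/- PCN replicate 5. *Cd68* lost its call without Pxr-/- CONT replicates 1, 3 or 4 or Pxr-/- PCN replicates 1, 4, 5 or 6, each left out singly. In the lost fits of *Cnn1* and *Cd68* the adjusted p was at most 0.0445 and 0.0227, so that the fold fell under the threshold of 1.5. *Lck*, a kinase of T cells, was the 1 list gene called between the genotypes in vehicle-treated mice, higher by 0.66 in Pxr-/- mice (adjusted p = 0.0277), and held its call in 16 of the 23 fits. Of the 7 lost, the highest adjusted p was 0.107, without WT CONT replicate 6. In the same comparison 10 of 11 T cell genes were higher in Pxr-/- mice, with a median of 0.65 against 0.003 over all probes. Of the 11, 1 was called, at a background of 0.148% of probes.

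On WT PCN replicates 2 and 3, the median distance from the median over arrays was -1.33 and -1.05 for 4 erythroid genes and -1.26 and -1.16 for 5 adipose genes. Values as low or lower were seen for erythroid genes on Pxr-/- CONT replicate 3, at -1.41, and for adipose genes on WT CONT replicate 4, at -1.89, arrays on which the 9 B cell and follicle genes stood at -0.28 and -0.12. The part of fat or blood in the sampled tissue was not tested.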
